A study of Mus musculus with 24 samples.

Results

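The 35 genes described here encode proteins of mitosis and the mitotic spindle, read as RNA in 2 mouse lung tumour lines. They were chosen as a list of named genes, and all 35 were present in the value tables of both lines, out of 37230 genes listed in either table. The list holds 7 kinases, phosphatases and cyclins of mitotic entry, 6 spindle checkpoint and chromosomal passenger genes and 2 partners of the anaphase-promoting complex. It further holds 6 centromere and kinetochore genes, 7 spindle motor and microtubule genes, 5 central spindle and cytokinesis genes and 2 genes of mitotic chromosome structure. One line was Lewis lung carcinoma (LLC1). The other was KP, derived from a genetically engineered mouse that carries p53 flox/flox. Tumour cells were injected into mice, tumours were taken on day 15, and live CD45- cells were sorted for bulk total RNA sequencing. In LLC1 the groups were tumours of cells kept under low-level chronic interferon gamma (Chronic IFNG), tumours relapsed after immune checkpoint blockade (Relapsed) and Parental tumours. In KP they were Chronic IFNG, 1st relapse, 2nd relapse, Late relapse and Parental tumours. Each of the 8 groups had 3 libraries, 24 in all. The labels give no treatment of the mice for any group. The agent that preceded relapse, the interval before each relapse, the strain of the host mice and whether a line was 1 clone are not given in the sources used here.

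Mitosis begins when Cdk1 bound to cyclin A or cyclin B is activated, with Polo-like and Aurora kinases building the spindle and readying the kinetochores, the structures that tie chromosomes to microtubules. The spindle checkpoint holds back the anaphase-promoting complex until all chromosomes are attached. The complex then marks cyclins and securin for destruction, and the central spindle and an actin ring divide the cell. Most of these genes are transcribed late in the cell cycle, held off in resting cells by the DREAM complex and switched on by MuvB with Mybl2 and then Foxm1, so their RNA is widely used as a measure of how much a tumour divides.

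Promoters of late cell cycle genes are known for a pair of short elements, the cell cycle genes homology region (CHR) and the CCAAT box. RefSeq promoter windows on GRCm38.p6, which run over 250 bases before and 50 bases after the gene start, were matched for 30 of the 35 members. Ccna2, Cdc25c, Aurkb, Tpx2 and Kif20a had no entry. The CHR letters TTTGAA, or TTCAAA on the other strand, were found in 23 of the 30 windows (76.7%), against 18.1% of 27025 promoters of all genes and 11.9% of 9057 promoters of genes that passed the filter on low values described below in either line (kept genes). CCAAT, or ATTGG on the other strand, was found in 22 windows (73.3%), against 37.9% of all promoters and 39.2% of those of kept genes. Both elements stood in 19 windows (63.3%), against 7.12% of all promoters and 5.09% of those of kept genes. A CCAAT that runs straight into a TTTGAA shares its last letter with it, and both were then counted. A match is a run of letters, not a shown binding site. In 19 promoters of a list of DNA replication and S phase genes, CCAAT was found in 14 (73.7%) and the CHR in 3 (15.8%). The windows of Ccnb1, Bub1, Mad2l1, Birc5, Cenpe, Nuf2 and Nusap1 did not hold the CHR letters. Windows of 3 members that hold both elements, and whose RNA is described below, are printed 5′ to 3′ with both motifs in capitals: Ccnb2 (cyclin B2, chr9:70421505-70421804, minus strand), Cdk1 (the mitotic kinase, chr10:69352863-69353162, minus strand) and Plk1 (Polo-like kinase, chr7:122159185-122159484, plus strand).
Ccnb2: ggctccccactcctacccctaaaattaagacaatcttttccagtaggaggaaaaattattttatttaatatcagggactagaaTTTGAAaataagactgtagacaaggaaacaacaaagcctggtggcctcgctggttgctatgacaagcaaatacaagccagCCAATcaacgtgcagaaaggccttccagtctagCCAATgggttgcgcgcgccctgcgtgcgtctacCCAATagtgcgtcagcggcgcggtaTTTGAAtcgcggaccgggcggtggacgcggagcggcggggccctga
Cdk1: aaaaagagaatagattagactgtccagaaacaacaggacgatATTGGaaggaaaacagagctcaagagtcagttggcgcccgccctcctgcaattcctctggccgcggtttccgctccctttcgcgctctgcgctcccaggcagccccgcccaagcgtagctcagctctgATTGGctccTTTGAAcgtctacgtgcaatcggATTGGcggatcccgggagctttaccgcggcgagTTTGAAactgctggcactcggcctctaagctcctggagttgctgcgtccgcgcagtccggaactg
Plk1: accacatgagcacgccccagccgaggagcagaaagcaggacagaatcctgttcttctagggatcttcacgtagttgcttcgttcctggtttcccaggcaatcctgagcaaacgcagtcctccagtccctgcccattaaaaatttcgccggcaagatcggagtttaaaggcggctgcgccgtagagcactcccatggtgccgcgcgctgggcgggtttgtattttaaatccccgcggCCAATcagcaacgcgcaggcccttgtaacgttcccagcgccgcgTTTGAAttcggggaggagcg
Counted with 1 as the base at the gene start and -1 as the base before it, the first letter of the CHR lay at -167 and 5 in Ccnb2, at -71 and -15 in Cdk1 and at 31 in Plk1. The CCAAT box lay at -87, -54 and -21 in Ccnb2, at -208, -80 and -48 in Cdk1 (as ATTGG) and at -14 in Plk1.

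The deposited values were log2 values with the variance stabilised, made separately for each line, so all tests stayed within a line. Levels are given here as normalised counts calculated back from those values, and differences as log2 differences of the deposited values, which are smaller than the log2 of the fold at low counts. Sequencing depth, estimated from the spacing of the lowest values, was 13.3 to 35 M fragments per LLC1 library and 13.7 to 32.6 M per KP library. limma was run on genes for which some group's mean exceeded the table's lowest value by at least 1 log2 unit, which in normalised counts is 130.4 for LLC1 and 144.2 for KP. That left 10581 of 31618 LLC1 genes and 11193 of 36040 KP genes, including all 35 members in each line. A gene was called at a Benjamini-Hochberg adjusted p below 0.05 over all kept genes of the line. The series' design text calls the libraries biological replicates but the labels name no separate animals, so p-values measure the spread between these libraries, which may be technical. Ptprc, which encodes CD45, was below the filter in both lines, and no gene of the T and NK cell list or the B cell list was kept. The 6 listed leukocyte genes summed to between 5.66 and 33.1 CPM (normalised counts scaled to the same total in every library) over all libraries. One of the 6 leukocyte genes was kept in each line (Arhgdib in LLC1, Lcp1 in KP), and of 6 macrophage genes 3 were kept in LLC1 and 2 in KP. Of 5 listed epithelial genes, Krt8 and Krt18 were kept in LLC1, where Epcam, Cdh1 and Krt19 were below the filter. All 5 were kept in KP. Their sum was 235 to 300 CPM in Parental LLC1 and 4338 to 4359 CPM in Parental KP libraries.

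Averaged over the 35 members, the deposited log2 value among LLC1 groups was lowest in Chronic IFNG and highest in Relapsed tumours. The mean was 10.17, 10.18 and 10.36 in Chronic IFNG, 10.99, 11.06 and 10.99 in Relapsed and 10.73, 10.85 and 10.60 in Parental LLC1 libraries, so that the 3 groups did not overlap. In KP it was 10.30, 10.44 and 10.44 in Chronic IFNG, 10.67, 10.57 and 10.54 in 1st relapse, 10.62, 10.61 and 10.69 in 2nd relapse, 10.81, 10.70 and 10.61 in Late relapse and 10.46, 10.45 and 10.36 in Parental libraries. Every relapse library of KP lay above every Parental library, while the Chronic IFNG and Parental libraries overlapped. Because each library holds RNA of many cells, fewer dividing cells and less of these RNAs per cell cannot be told apart.

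**Figure D1:**
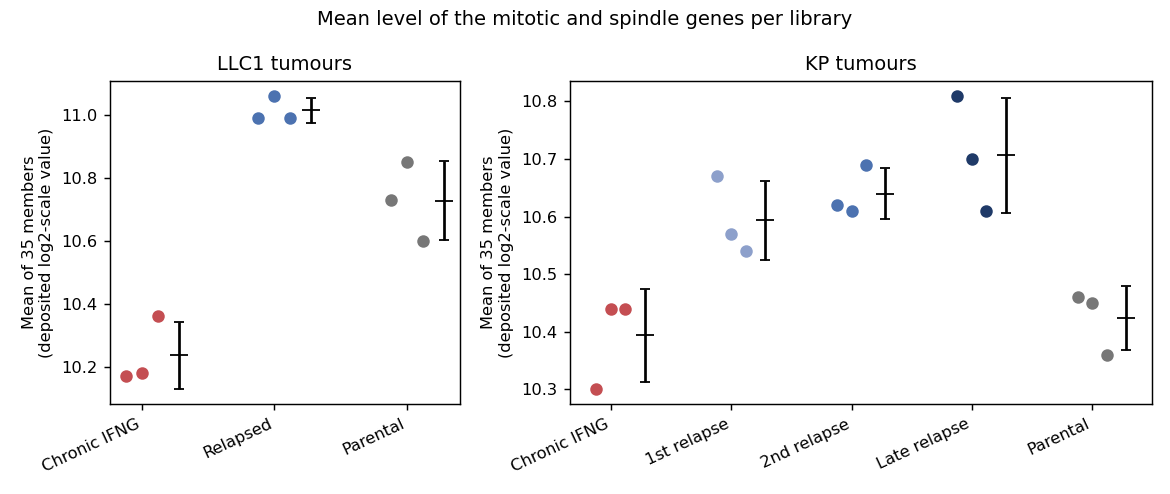
Mean deposited log2 value of the 35 mitotic and spindle genes (vertical axis, not starting at 0) in each library of LLC1 (left) and KP (right). Each point is 1 library, and the bar is the group mean with its SD over 3 libraries. Chronic IFNG LLC1 libraries lie at 10.17 to 10.36, Relapsed at 10.99 to 11.06 and Parental at 10.60 to 10.85, and in KP only the relapse groups lie above the Parental range of 10.36 to 10.46.

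All 35 mitotic and spindle genes were lower in Chronic IFNG LLC1 tumours than in Parental LLC1 tumours. Among all kept genes 15.5% were called lower and 9.03% higher. The median log2 difference of the members was -0.47, against -0.02 for all kept genes. The range ran from -0.76 for Top2a to -0.27 for Kif4. All 3 Chronic IFNG libraries lay below all 3 Parental libraries for each of the 35 members, a pattern that 23.6% of all kept genes showed. Top2a, the DNA topoisomerase that untangles replicated chromosomes, had 5056, 4906 and 5737 normalised counts in Chronic IFNG and 9280, 10662 and 7836 in Parental tumours. The highest Chronic IFNG library stood well below the lowest Parental one. The fall was 1.77-fold (log2 difference -0.76, SE 0.09, adjusted p = 7.7e-04). Kif23, a kinesin of the central spindle, had 538, 430 and 532 in Chronic IFNG and 1079, 1353 and 868 in Parental tumours, a 2.2-fold fall (log2 difference -0.72, SE 0.10, adjusted p = 0.00116). Its lowest library in Chronic IFNG was replicate 2 and its lowest in Parental was replicate 3. Cenpf, a large coiled-coil protein of the outer kinetochore, had 1509, 1310 and 1636 in Chronic IFNG and 2923, 2848 and 2392 in Parental tumours and fell 1.83-fold (log2 difference -0.71, SE 0.09, adjusted p = 7.7e-04). Leaving out 1 library at a time left 33 to 35 members lower. Kif4, a chromosome-arm kinesin, lost its call without Parental LLC1 replicate 2 (-0.23). Cdc25c, the phosphatase that activates Cdk1, lost it without Parental replicate 1 (-0.33) or 2 (-0.22) and without Chronic IFNG replicate 1 (-0.23) or 2 (-0.26), with all libraries in at -0.29 (adjusted p = 0.03). It also lost it without the filter (adjusted p = 0.0748) and with these 2 groups fitted alone (adjusted p = 0.0666). Fibroblast markers moved with the group. Of 6 listed genes 5 rose and all were kept, and their sum was 5044 to 7401 CPM in Chronic IFNG and 2510 to 3206 CPM in Parental libraries. Of 2 kept endothelial markers 1 rose and 1 fell, with sums over the 5 listed of 67.1 to 70.5 CPM in Chronic IFNG and 55.1 to 63.8 CPM in Parental libraries. Their part in the lower mitotic RNA was not tested.

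In Relapsed LLC1 tumours 23 of the 35 members were higher than in Parental LLC1 tumours and 0 were lower, beside 25.9% of all kept genes called higher and 19.5% called lower. The median log2 difference was 0.27 for the members and 0.03 for all kept genes. All 3 Relapsed libraries lay above all 3 Parental libraries for 23 members, as they did for 33.6% of kept genes, and for the other 12 the groups overlapped. Ccna2, the cyclin that carries cells through S phase into mitosis, had 3081, 3146 and 2886 normalised counts in Relapsed and 1649, 1824 and 1443 in Parental tumours. It rose 1.85-fold, with no overlap between the groups (log2 difference 0.74, SE 0.09, adjusted p = 7.5e-05). Ect2, the exchange factor that activates RhoA for the cleavage furrow, had 1581, 1766 and 1634 in Relapsed and 944, 899 and 832 in Parental tumours, a 1.86-fold rise (log2 difference 0.66, SE 0.08, adjusted p = 1.3e-04). Racgap1, the centralspindlin subunit that recruits Ect2, had 3413, 3739 and 3591 in Relapsed and 1968, 2347 and 2060 in Parental tumours and rose 1.69-fold (log2 difference 0.64, SE 0.07, adjusted p = 4.9e-05). Counts by role were uneven, which was not tested. Of the genes of central spindle and cytokinesis 4 of 5 rose (median 0.48) and of the centromere and kinetochore 5 of 6 (0.27), against 4 of 7 of mitotic entry (0.25), 3 of 6 of checkpoint and passenger (0.20), 5 of 7 of spindle motors (0.30), 1 of 2 partners of the anaphase-promoting complex (0.26) and 1 of 2 of chromosome structure (0.26). The members that did not pass the test were Cdc25c (-0.09), Plk1 (0.13), Aurka (0.12), Bub1 (0.07), Bub1b (0.05), Birc5 (0.15), Ube2c (0.03), Nuf2 (0.03), Hmmr (-0.05), Prc1 (0.24), Kif20a (-0.10) and Top2a (0.13). Without 1 library the count ran between 17 and 24. The calls of Cenpf, Tpx2, Ccnb1, Aurkb, Ccnb2 and the kinetochore scaffold gene Knl1 were lost in turn. Cenpf lost it without Parental replicate 3 (0.20) or Relapsed replicate 1 (0.29) or 2 (0.21), Ccnb2 without Parental replicate 3 (0.19) or Relapsed replicate 2 (0.21), and Aurkb without Parental replicate 1 (0.19) or Relapsed replicate 2 (0.22) or 3 (0.23). Ccnb1 lost it without Parental replicate 1 (0.28) or 3 (0.20) or Relapsed replicate 2 (0.24) or 3 (0.28). Tpx2 lost it without Parental replicate 1 (0.30) or 3 (0.20) or Relapsed replicate 1 (0.30) or 2 (0.25), and Knl1 without Parental replicate 1 (0.33) or 3 (0.28) or Relapsed replicate 1 (0.31) or 2 (0.33). Prc1 gained one without Parental replicate 2 (0.32). Testing without the filter ended the calls of Cenpf (adjusted p = 0.0572) and Tpx2 (adjusted p = 0.0686), and quantile normalisation that of Tpx2 (0.26). Of the 6 fibroblast markers 3 fell, with sums of 2172 to 2354 CPM in Relapsed and 2510 to 3206 CPM in Parental libraries. Of 3 kept macrophage markers 2 rose and 1 fell, with sums over the list of 24.0 to 39.9 CPM in Relapsed and 16.0 to 20.5 CPM in Parental libraries. Both kept endothelial markers fell, with sums of 37.6 to 42.3 CPM in Relapsed and 55.1 to 63.8 CPM in Parental libraries. Both kept erythroid markers rose, with sums of 22 to 41.1 CPM in Relapsed and 8.6 to 11.1 CPM in Parental libraries. Their part in the difference was not tested.

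Set directly against Chronic IFNG LLC1 tumours, Relapsed LLC1 tumours had 34 of 35 members higher and 0 lower, beside 31.5% of kept genes called higher and 20.5% lower (3337 and 2166 genes, against 2701 and 2776 after median centring). The median log2 difference was 0.73, against 0.04 for all kept genes. Kif23 was 3.38-fold higher (log2 difference 1.20, SE 0.10, adjusted p = 6.2e-06), Ect2 3.05-fold (log2 difference 1.12, SE 0.08, adjusted p = 3.1e-06) and Ccna2 2.92-fold (log2 difference 1.23, SE 0.09, adjusted p = 2.0e-06). The microtubule-bundling gene Nusap1 was 2.9-fold higher (log2 difference 0.91, SE 0.07, adjusted p = 4.5e-06). For 34 members no Relapsed library overlapped with a Chronic IFNG library, as for 36.1% of kept genes. Cdc25c alone did not pass the test (0.20, adjusted p = 0.0663), and it passed without Chronic IFNG replicate 3 (0.30).

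**Figure D2:**
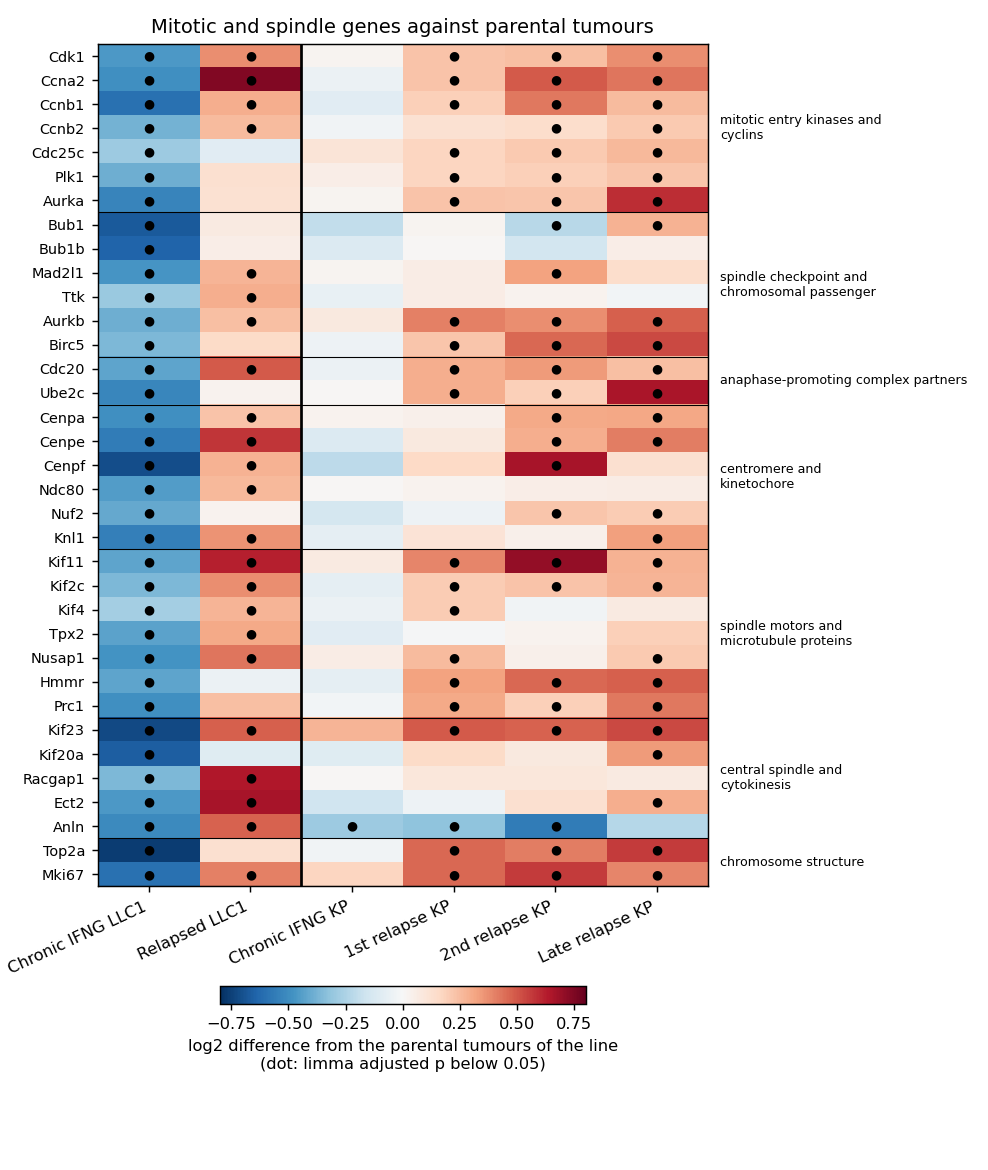
Log2 difference of each of the 35 members (rows, grouped by role) in each of the 6 comparisons with Parental tumours of the same line (columns), coloured by size and direction. A dot marks a member called with limma at a Benjamini-Hochberg adjusted p below 0.05. The Chronic IFNG LLC1 column is negative throughout with 35 calls, and the Chronic IFNG KP column holds 1 call, for Anln.

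Among the LLC1 genes of mitotic entry, Cdk1 had 1015, 1138 and 1242 normalised counts in Chronic IFNG, 2215, 2544 and 2350 in Relapsed and 1776, 1831 and 1577 in Parental tumours. The 3 groups were separate. Cdk1 was 1.53-fold lower in Chronic IFNG (log2 difference -0.46, SE 0.07, adjusted p = 0.00169) and 1.37-fold higher in Relapsed tumours (log2 difference 0.37, SE 0.07, adjusted p = 0.00159). Ccnb1, its cyclin B1 partner, had 660, 652 and 733 in Chronic IFNG, 1474, 1754 and 1651 in Relapsed and 1235, 1489 and 1053 in Parental tumours. The highest Parental library, replicate 2, exceeded the lowest Relapsed library. It was 1.85-fold lower in Chronic IFNG (log2 difference -0.60, SE 0.09, adjusted p = 0.00143) and 1.29-fold higher in Relapsed tumours (log2 difference 0.29, SE 0.09, adjusted p = 0.0198, a call lost as given above). Plk1, the Polo-like kinase of centrosome maturation, had 246, 233 and 320 in Chronic IFNG, 502, 626 and 484 in Relapsed and 385, 562 and 430 in Parental tumours. Its Relapsed and Parental libraries overlapped, and it was called only in Chronic IFNG (1.72-fold lower, log2 difference -0.39, SE 0.09, adjusted p = 0.0112). Aurka, the Aurora kinase of spindle poles, had 319, 346 and 440 in Chronic IFNG, 735, 785 and 867 in Relapsed and 694, 807 and 598 in Parental tumours, with the same overlap of Relapsed and Parental libraries. Ccna2 had 985, 909 and 1229 in Chronic IFNG tumours, all below the Parental values given above (log2 difference -0.49, SE 0.09, adjusted p = 0.00329). Ccnb2, the cyclin B2 whose promoter window is printed above, had 606, 633 and 716 in Chronic IFNG, 1214, 1333 and 1180 in Relapsed and 945, 1124 and 862 in Parental tumours. It was 1.5-fold lower (log2 difference -0.38, SE 0.07, adjusted p = 0.00489) and 1.27-fold higher (log2 difference 0.25, SE 0.07, adjusted p = 0.0153, a call lost as given above).

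Of the spindle checkpoint and passenger genes, Bub1, a checkpoint kinase of the kinetochore, had 697, 768 and 995 normalised counts in Chronic IFNG LLC1, 1486, 1669 and 1775 in Relapsed LLC1 and 1745, 1736 and 1204 in Parental LLC1 tumours. Its Parental replicate 3 stood apart on the low side, and the Relapsed libraries overlapped with the Parental ones. Bub1 was 1.9-fold lower in Chronic IFNG (log2 difference -0.67, SE 0.12, adjusted p = 0.00332). Aurkb, the kinase of the chromosomal passenger complex, had 446, 445 and 552 in Chronic IFNG, 908, 1006 and 993 in Relapsed and 668, 852 and 746 in Parental tumours. The 3 groups did not overlap, with 1.57-fold lower (log2 difference -0.39, SE 0.07, adjusted p = 0.00347) and 1.28-fold higher values (log2 difference 0.24, SE 0.07, adjusted p = 0.0152, a call lost as given above). Birc5, the survivin subunit of that complex, had 367, 451 and 560 in Chronic IFNG, 809, 868 and 769 in Relapsed and 649, 804 and 645 in Parental tumours. It was 1.52-fold lower in Chronic IFNG (log2 difference -0.36, SE 0.08, adjusted p = 0.012), and its Relapsed libraries overlapped with Parental replicate 2. Of the partners of the anaphase-promoting complex, Cdc20, its activator in mitosis, had 597, 694 and 776 in Chronic IFNG, 1539, 1817 and 1664 in Relapsed and 1039, 1170 and 977 in Parental tumours, 1.54-fold lower (log2 difference -0.42, SE 0.07, adjusted p = 0.00349) and 1.58-fold higher (log2 difference 0.49, SE 0.07, adjusted p = 4.2e-04). Ube2c, the ubiquitin-conjugating enzyme that serves it, had 344, 400 and 478 in Chronic IFNG, 689, 812 and 821 in Relapsed and 801, 823 and 632 in Parental tumours. The groups of Relapsed and Parental libraries overlapped for Ube2c (log2 difference 0.03, SE 0.08, adjusted p = 0.792), which was 1.84-fold lower in Chronic IFNG (log2 difference -0.52, SE 0.08, adjusted p = 0.00209). Whether Cdc20 and Ube2c differed from each other was not tested.

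All centromere and kinetochore members except Nuf2 separated all 3 LLC1 groups. Cenpa, the histone variant that marks centromeres, had 488, 423 and 497 normalised counts in Chronic IFNG LLC1, 981, 1093 and 1027 in Relapsed LLC1 and 779, 919 and 755 in Parental LLC1 tumours. It was 1.74-fold lower (log2 difference -0.49, SE 0.06, adjusted p = 8.2e-04) and 1.26-fold higher (log2 difference 0.23, SE 0.06, adjusted p = 0.0106). Ndc80, the subunit that grips microtubules, had 354, 337 and 361 in Chronic IFNG, 798, 842 and 811 in Relapsed and 609, 656 and 586 in Parental tumours. Its libraries agreed closely within each group, and it was 1.76-fold lower (log2 difference -0.45, SE 0.05, adjusted p = 3.9e-04) and 1.32-fold higher (log2 difference 0.26, SE 0.05, adjusted p = 0.00104). Cenpf had 3311, 3770 and 3102 in Relapsed tumours, all above the Parental values (log2 difference 0.28, SE 0.09, adjusted p = 0.0254, a call lost as given above). Nuf2, the partner of Ndc80 in the same complex, averaged 674 ± 17.2 in Relapsed and 650 ± 57.7 in Parental tumours (SD, n = 3 each) and did not pass the test there.

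Kif11, the kinesin that pushes spindle poles apart, had 1041, 1002 and 1231 normalised counts in Chronic IFNG LLC1, 2767, 2793 and 2586 in Relapsed LLC1 and 1686, 1767 and 1377 in Parental LLC1 tumours. No group overlapped with another, and Kif11 was 1.47-fold lower (log2 difference -0.42, SE 0.08, adjusted p = 0.00493) and 1.69-fold higher (log2 difference 0.62, SE 0.08, adjusted p = 1.4e-04). Tpx2, the spindle assembly factor that activates Aurka, had 920, 1163 and 1135 in Chronic IFNG, 2060, 2227 and 1911 in Relapsed and 1599, 1897 and 1328 in Parental tumours. It was 1.5-fold lower (log2 difference -0.43, SE 0.10, adjusted p = 0.0113) and 1.28-fold higher (log2 difference 0.30, SE 0.10, adjusted p = 0.0308, a call lost as given above). Kif23 had 1715, 1773 and 1586 in Relapsed tumours and was 1.54-fold higher than in Parental tumours (log2 difference 0.48, SE 0.10, adjusted p = 0.00283). Every Relapsed library exceeded every Parental one. Anln, the anillin that scaffolds the actin ring, had 2247, 2337 and 2947 in Chronic IFNG, 5314, 5540 and 5280 in Relapsed and 3753, 4150 and 3392 in Parental tumours. It was 1.5-fold lower (log2 difference -0.51, SE 0.09, adjusted p = 0.00323) and 1.43-fold higher (log2 difference 0.47, SE 0.09, adjusted p = 0.00168), with no overlap of groups. Mki67, the chromosome surface protein known as the Ki-67 proliferation marker, had 3596, 3865 and 4257 in Chronic IFNG, 8724, 8275 and 7918 in Relapsed and 6108, 7153 and 5376 in Parental tumours. It was 1.59-fold lower (log2 difference -0.60, SE 0.09, adjusted p = 0.00171) and 1.34-fold higher (log2 difference 0.40, SE 0.09, adjusted p = 0.00484). Top2a had 10027, 9976 and 10222 in Relapsed tumours, inside the range of the Parental libraries.

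In Chronic IFNG KP tumours 1 of the 35 members was called lower than in Parental KP tumours and 0 were called higher, beside 9% of kept genes lower and 12.8% higher (1007 and 1431 genes, against 1508 and 1291 after median centring). The median log2 difference of the members was -0.04, and of all kept genes -0.01. The called member was Anln, with 2078, 2553 and 2195 normalised counts in Chronic IFNG and 3074, 3067 and 2577 in Parental tumours. It was 1.28-fold lower, just short of overlap (log2 difference -0.29, SE 0.09, adjusted p = 0.0389). The call was lost without Parental KP replicate 1 (-0.26) or 2 (-0.26) or Chronic IFNG KP replicate 1 (-0.24) or 3 (-0.27), under quantile normalisation (-0.27) and without the filter (adjusted p = 0.0685). Libraries did not overlap for Nuf2 and Anln on the lower side and for Kif23 on the higher side. Such separation was seen for 18.5% of kept genes below and 19.9% above. Kif23 had 1268, 1272 and 1456 in Chronic IFNG and 922, 1153 and 1004 in Parental tumours and did not pass the test (log2 difference 0.27, SE 0.11, adjusted p = 0.0925), though it did when these groups were fitted alone (adjusted p = 0.0326). Mki67 (0.17 with all libraries) was called higher without Chronic IFNG KP replicate 1 (0.25). None of the 6 fibroblast markers was called, with sums of 146 to 245 CPM in Chronic IFNG and 157 to 203 CPM in Parental libraries. Of 5 epithelial markers 3 rose, with sums of 4846 to 5908 CPM in Chronic IFNG and 4338 to 4359 CPM in Parental libraries. Of 6 macrophage markers 2 were kept and 1 rose, with sums of 47.4 to 66.4 CPM in Chronic IFNG and 22.3 to 30.9 CPM in Parental libraries. Of 5 endothelial markers 1 was kept and fell, with sums of 115 to 124 CPM in Chronic IFNG and 152 to 165 CPM in Parental libraries. The part of these markers was not tested.

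In 1st relapse KP tumours 19 members were higher and 1 was lower than in Parental KP tumours, beside 25.4% of kept genes higher and 25.5% lower. The member median was 0.17, against -0.01 for all kept genes. Libraries stood fully above Parental for 18 members and fully below for 1, as for 29.6% and 29.6% of kept genes. Kif23 had 1906, 1372 and 1637 in 1st relapse tumours and rose 1.6-fold over the Parental values given above (log2 difference 0.49, SE 0.11, adjusted p = 0.00184). All 3 libraries lay above all Parental libraries. Mki67 had 5295, 5033 and 4915 in 1st relapse and 3685, 3741 and 3219 in Parental tumours, a 1.43-fold rise (log2 difference 0.46, SE 0.08, adjusted p = 1.8e-04). Top2a had 5874, 5237 and 5004 in 1st relapse and 4127, 3850 and 3316 in Parental tumours, a 1.43-fold rise (log2 difference 0.46, SE 0.11, adjusted p = 0.00275). Counts by role were uneven, which was not tested. Entry genes rose in 6 of 7 (median 0.19), motors in 6 of 7 (0.25) and both partners of the anaphase-promoting complex (0.29), and so did both genes of chromosome structure (0.46). In the other roles 2 of 6 checkpoint and passenger genes (0.06), 0 of 6 centromere and kinetochore genes (0.06) and 1 of 5 cytokinesis genes rose, and 1 cytokinesis gene fell (0.09). The member that fell was Anln, with 2440, 2216 and 2020 in 1st relapse tumours (log2 difference -0.32, SE 0.09, adjusted p = 0.0119). Several calls were lost on leaving out 1 library, and 11 members were higher without 1st relapse KP replicate 1 and 13 without Parental KP replicate 3. Cdk1 lost its call without Parental KP replicate 1 (0.22) or 3 (0.19) or 1st relapse replicate 1 (0.19), 2 (0.24) or 3 (0.25). Ccnb1 lost it without Parental KP replicate 2 (0.18) or 3 (0.17) or 1st relapse replicate 1 (0.15) or 3 (0.20). Plk1 lost it without Parental KP replicate 2 (0.15) or 3 (0.16) or 1st relapse replicate 1 (0.16) or 2 (0.16). Ccna2 lost it without Parental KP replicate 3 (0.17) or 1st relapse replicate 1 (0.16), Birc5 without 1st relapse replicate 1 (0.18) and Anln without 1st relapse replicate 3 (-0.26). Cdc25c lost it without Parental KP replicate 1 (0.14) or 1st relapse replicate 1 (0.13) or 2 (0.16). Kif2c, a kinesin that takes microtubules apart, lost it without Parental KP replicate 3 (0.10) or 1st relapse replicate 1 (0.16) or 2 (0.20), and Kif4 without Parental KP replicate 1 (0.21) or 3 (0.14) or 1st relapse replicate 1 (0.11). Kif20a gained a call without Parental KP replicate 1 (0.18) and Ccnb2 without 1st relapse replicate 2 (0.18). Quantile normalisation ended the calls of Cdk1 (0.20), Cdc25c (0.05), Plk1 (0.07), Aurka (0.16), Birc5 (0.15), Kif2c (0.13) and Kif4 (0.16), while Nuf2 was then called lower (-0.16) and Kif20a higher (0.17). Median centring ended those of Cdk1 (0.19), Ccnb1 (0.15), Cdc25c (0.14), Plk1 (0.13), Kif2c (0.16) and Kif4 (0.16). Testing without the filter ended those of Cdk1 (adjusted p = 0.0629), Ccnb1 (adjusted p = 0.0656), Kif2c (adjusted p = 0.0628) and Kif4 (adjusted p = 0.0644). Fitting these 2 groups alone ended those of Cdc25c (adjusted p = 0.0634), Kif2c (adjusted p = 0.0811) and Kif4 (adjusted p = 0.0839). Of the 6 fibroblast markers 5 rose, with sums of 454 to 652 CPM in 1st relapse and 157 to 203 CPM in Parental libraries. Of 5 epithelial markers 3 rose, with sums of 5226 to 6161 CPM in 1st relapse and 4338 to 4359 CPM in Parental libraries. Of 2 kept macrophage markers 1 rose, with sums over the list of 77.3 to 82.1 CPM in 1st relapse and 22.3 to 30.9 CPM in Parental libraries. The 1 kept endothelial marker was not called, with sums of 173 to 194 CPM in 1st relapse and 152 to 165 CPM in Parental libraries. Both kept pericyte markers, of 3 listed, rose, with sums of 15.1 to 27.9 CPM in 1st relapse and 8.68 to 11.5 CPM in Parental libraries. Their part in the difference was not tested.

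In 2nd relapse KP tumours 23 members were higher and 2 were lower than in Parental KP tumours, beside 36.8% of kept genes higher and 29% lower. The member median was 0.22, against 0.03 for all kept genes. Libraries stood fully above for 23 members and fully below for 2, as for 40.1% and 31.5% of kept genes. Kif11 had 1784, 1604 and 1806 in 2nd relapse and 938, 995 and 714 in Parental tumours, a 1.96-fold rise (log2 difference 0.70, SE 0.08, adjusted p = 1.8e-06). Cenpf had 2405, 2696 and 2426 in 2nd relapse and 1404, 1223 and 1604 in Parental tumours, a 1.78-fold rise (log2 difference 0.66, SE 0.11, adjusted p = 9.4e-05). In both genes the lowest 2nd relapse library was far above the highest Parental library. Anln went the other way, with 1677, 1799 and 1930 in 2nd relapse tumours, 1.61-fold lower (log2 difference -0.56, SE 0.09, adjusted p = 1.2e-04). Bub1, with 709, 639 and 663 in 2nd relapse and 987, 850 and 735 in Parental tumours, was 1.28-fold lower (log2 difference -0.22, SE 0.09, adjusted p = 0.0364). The call of Bub1 was lost without Parental KP replicate 1 (-0.15) or 2 (-0.22) or 2nd relapse replicate 2 (-0.20) or 3 (-0.21). All 7 entry genes rose (median 0.22), with 4 of 6 kinetochore genes (0.25), 4 of 7 motors (0.19) and both members of the anaphase-promoting partners (0.27) and of chromosome structure (0.48). In checkpoint and passenger 3 of 6 rose and 1 fell (0.17), and in cytokinesis 1 of 5 rose and 1 fell (0.09). Ube2c lost its call without Parental KP replicate 2 (0.19) or 3 (0.16) or 2nd relapse replicate 1 (0.20), 2 (0.19) or 3 (0.19), and Cdk1 without Parental KP replicate 3 (0.20) or 2nd relapse replicate 1 (0.22). Ccnb2 lost it without Parental KP replicate 2 (0.13) or 3 (0.13) or 2nd relapse replicate 1 (0.14) or 3 (0.13), and Cenpe, the kinetochore motor, without Parental KP replicate 3 (0.23) or 2nd relapse replicate 3 (0.25). Prc1, which bundles microtubules of the central spindle, lost it without Parental KP replicate 3 (0.11) or 2nd relapse replicate 2 (0.18), and Kif2c without Parental KP replicate 3 (0.14). Quantile normalisation ended the calls of Cdk1 (0.18), Ccnb2 (0.09), Ube2c (0.14), Cenpe (0.21) and Prc1 (0.13), and median centring those of Ccnb2 (0.09), Ube2c (0.15) and Prc1 (0.15). Testing without the filter ended those of Ccnb2 (adjusted p = 0.0747), Bub1 (adjusted p = 0.062) and Ube2c (adjusted p = 0.0705). All 6 fibroblast markers fell, with sums of 26.4 to 35.9 CPM in 2nd relapse and 157 to 203 CPM in Parental libraries. All 5 epithelial markers rose, with sums of 7802 to 8474 CPM in 2nd relapse and 4338 to 4359 CPM in Parental libraries. Of 2 kept macrophage markers 1 rose and 1 fell, with sums of 58.8 to 69.8 CPM in 2nd relapse and 22.3 to 30.9 CPM in Parental libraries. The 1 kept endothelial marker rose, with sums of 188 to 222 CPM in 2nd relapse and 152 to 165 CPM in Parental libraries. Their part in the difference was not tested.

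In Late relapse KP tumours 26 members were higher and 0 were lower than in Parental KP tumours, beside 31% of kept genes higher and 25.9% lower. The member median was 0.28, against 0.01 for all kept genes. For 27 members all Late relapse libraries lay above all Parental libraries, as for 33.6% of kept genes. Ube2c had 1355, 1014 and 1015 in Late relapse and 604, 548 and 512 in Parental tumours, a 2.03-fold rise (log2 difference 0.65, SE 0.08, adjusted p = 8.3e-06). Aurka had 923, 828 and 793 in Late relapse and 441, 389 and 433 in Parental tumours, a 2.01-fold rise (log2 difference 0.59, SE 0.06, adjusted p = 2.2e-06). The groups were wide apart for both genes. Top2a had 6928, 5402 and 5148 in Late relapse tumours, with replicate 1 the highest, and was 1.55-fold higher (log2 difference 0.56, SE 0.11, adjusted p = 5.2e-04). By role, 7 of 7 entry genes (median 0.26), 3 of 6 checkpoint and passenger genes (0.21), both partners of the anaphase-promoting complex (0.44), 4 of 6 kinetochore genes (0.25), 5 of 7 motors (0.27) 3 of 5 cytokinesis genes (0.29) and both of chromosome structure (0.47) rose. Anln had 2661, 2590 and 1985 in Late relapse tumours and narrowly missed the test (log2 difference -0.23, SE 0.09, adjusted p = 0.0521). It was called lower without Parental KP replicate 3 (-0.30) or Late relapse replicate 1 (-0.29) or 2 (-0.28), after median centring (-0.26) and with a stricter filter (adjusted p = 0.0468). Bub1 had 1355, 1082 and 998 in Late relapse tumours (log2 difference 0.28, SE 0.09, adjusted p = 0.012), a call lost without Parental KP replicate 3 (0.21) or Late relapse replicate 1 (0.19). Knl1 (0.23) and Ect2 (0.21) also lost theirs without Late relapse replicate 1. Of the 6 fibroblast markers 1 rose, with sums of 127 to 369 CPM in Late relapse and 157 to 203 CPM in Parental libraries. All 5 epithelial markers rose, with sums of 5270 to 5594 CPM in Late relapse and 4338 to 4359 CPM in Parental libraries. Of 2 kept macrophage markers 1 rose, with sums of 46.9 to 53.0 CPM in Late relapse and 22.3 to 30.9 CPM in Parental libraries. The 1 kept endothelial marker rose, with sums of 240 to 258 CPM in Late relapse and 152 to 165 CPM in Parental libraries. Their part in the difference was not tested. The comparisons of the 4 KP groups above all used the same 3 Parental KP libraries.

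**Figure D3:**
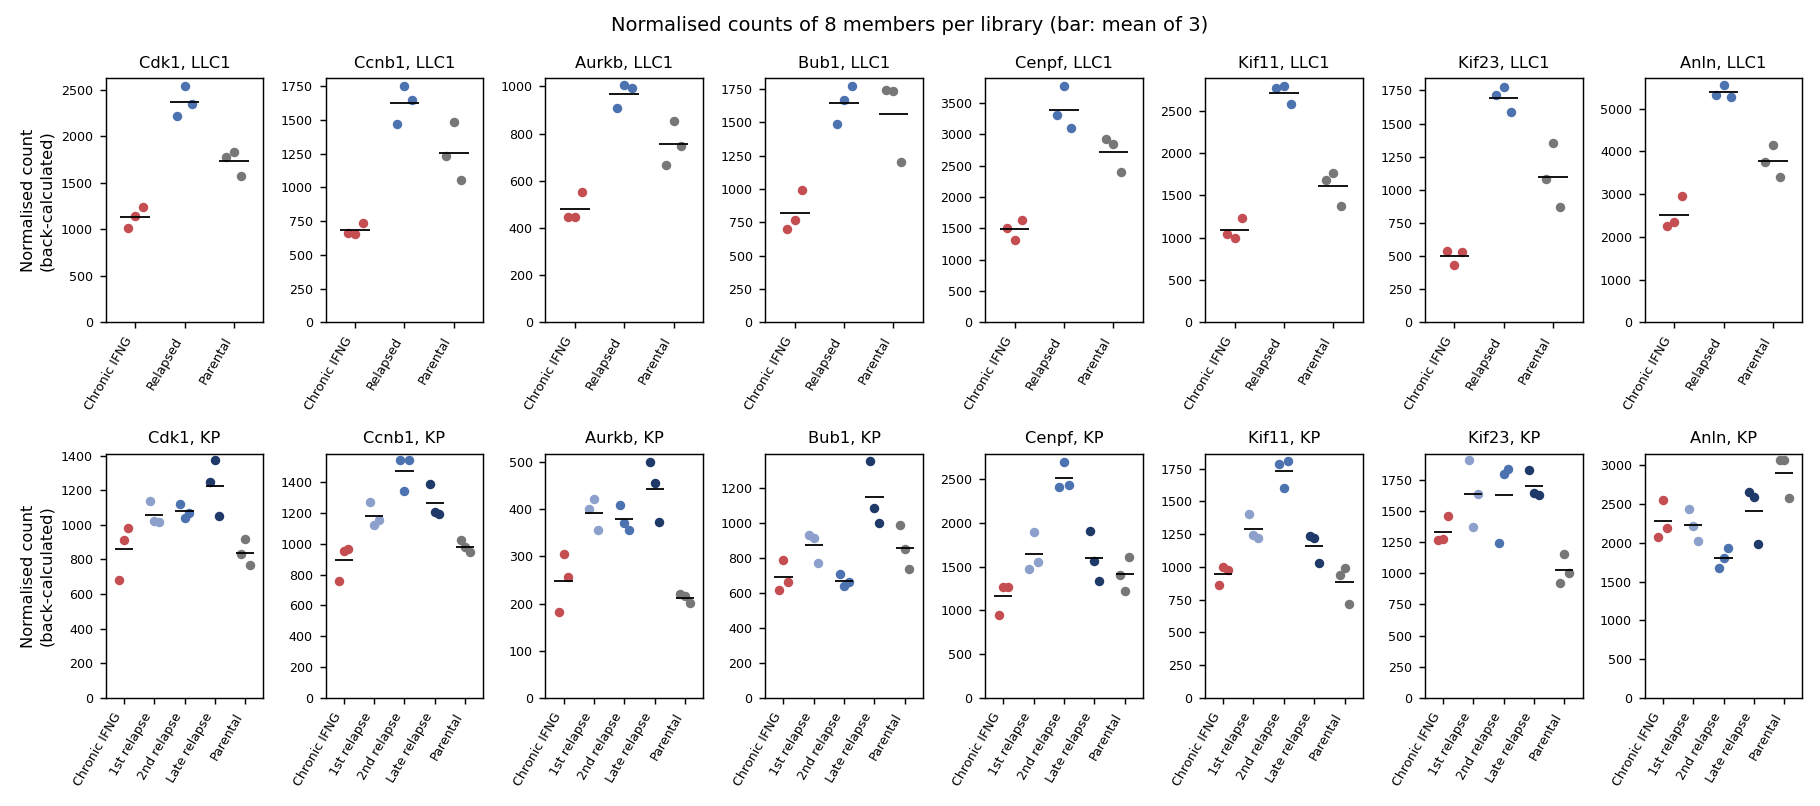
Normalised counts (vertical axes, starting at 0) of 8 members, Cdk1, Ccnb1, Aurkb, Bub1, Cenpf, Kif11, Kif23 and Anln, in every LLC1 and KP library. Each point is 1 library and the short line is the group mean. Anln is below its Parental KP libraries in the 2nd relapse group (1677 to 1930 against 2577 to 3074), where Cenpf and Kif11 are above theirs, and Bub1 is on average highest in KP in Late relapse.

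Across the KP groups, the entry kinase Cdk1 had 680, 911 and 983 normalised counts in Chronic IFNG, 1138, 1022 and 1016 in 1st relapse, 1123, 1038 and 1071 in 2nd relapse, 1249, 1374 and 1054 in Late relapse and 829, 921 and 766 in Parental tumours. All relapse libraries lay above all Parental ones, and the Chronic IFNG libraries overlapped with the Parental ones. The log2 differences from Parental tumours were 0.02 in Chronic IFNG (adjusted p = 0.921), 0.23 in 1st relapse (adjusted p = 0.0353), 0.24 in 2nd relapse (adjusted p = 0.0186) and 0.37 in Late relapse (adjusted p = 0.00165). Ccnb1 had 760, 955 and 968 in Chronic IFNG, 1272, 1120 and 1154 in 1st relapse, 1541, 1341 and 1542 in 2nd relapse, 1386, 1208 and 1195 in Late relapse and 1022, 979 and 944 in Parental tumours. It was 1.2-fold higher in 1st relapse, 1.5-fold in 2nd relapse and 1.29-fold in Late relapse tumours, with the 2nd relapse libraries the highest on average. Plk1 had 295, 310 and 343 in Chronic IFNG, 383, 382 and 350 in 1st relapse, 380, 364 and 403 in 2nd relapse, 442, 430 and 331 in Late relapse and 321, 272 and 281 in Parental tumours. Its relapse libraries were all above the Parental ones, at 1.28-fold in 1st relapse, 1.31-fold in 2nd relapse and 1.38-fold in Late relapse. Ccna2 had 1476, 1620 and 1573 in Chronic IFNG, 2263, 1827 and 1953 in 1st relapse, 2399, 2487 and 2640 in 2nd relapse, 2560, 2422 and 2156 in Late relapse and 1737, 1716 and 1463 in Parental tumours. Its largest difference from Parental tumours was in 2nd relapse (1.53-fold, log2 difference 0.49, SE 0.07, adjusted p = 2.6e-05). Aurka had 387, 462 and 447 in Chronic IFNG, 661, 541 and 497 in 1st relapse and 520, 585 and 570 in 2nd relapse tumours, which put Late relapse above every other KP group. The 1st relapse calls of Cdk1, Ccnb1, Plk1, Ccna2 and Aurka and the 2nd relapse call of Cdk1 were lost under the settings given above.

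The passenger kinase Aurkb had 183, 305 and 257 normalised counts in Chronic IFNG KP, 401, 421 and 356 in 1st relapse KP, 410, 371 and 357 in 2nd relapse KP, 501, 455 and 374 in Late relapse KP and 220, 216 and 202 in Parental KP tumours. All relapse libraries exceeded the Parental ones by a wide margin. The rise was 1.85-fold in 1st relapse (log2 difference 0.40, SE 0.07, adjusted p = 3.7e-04), 1.78-fold in 2nd relapse (log2 difference 0.37, SE 0.07, adjusted p = 3.4e-04) and 2.08-fold in Late relapse (log2 difference 0.48, SE 0.07, adjusted p = 5.4e-05). Birc5 had 358, 404 and 446 in Chronic IFNG, 620, 552 and 512 in 1st relapse, 724, 699 and 805 in 2nd relapse, 916, 796 and 695 in Late relapse and 427, 428 and 420 in Parental tumours. Its Parental libraries were within a few counts of each other, and it rose 1.32-fold (log2 difference 0.22, SE 0.06, adjusted p = 0.0109), 1.75-fold (log2 difference 0.46, SE 0.06, adjusted p = 1.7e-05) and 1.89-fold (log2 difference 0.53, SE 0.06, adjusted p = 9.0e-06) in 1st, 2nd and Late relapse tumours, the first of these without 1st relapse replicate 1 not passing the test (0.18). Among the checkpoint genes, Bub1 had 619, 786 and 661 in Chronic IFNG and 930, 915 and 770 in 1st relapse tumours, both overlapping with Parental. Bub1b, the checkpoint protein that binds Cdc20, and Ttk, the kinase that starts checkpoint signalling, did not pass the test in 1st relapse (0.01 and 0.06), in 2nd relapse (-0.15 and 0.03) or in Late relapse (0.05 and -0.02). Without Parental KP replicate 3, Bub1b was called lower in 2nd relapse (-0.22). Whether checkpoint and passenger genes differed in response was not tested.

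Cdc20 had 815, 791 and 765 normalised counts in Chronic IFNG KP, 1190, 1133 and 1035 in 1st relapse KP, 1172, 1098 and 1262 in 2nd relapse KP, 1090, 1096 and 1020 in Late relapse KP and 860, 868 and 768 in Parental KP tumours. The relapse libraries were all above the Chronic IFNG and Parental ones, with rises of 1.35-fold in 1st relapse (log2 difference 0.29, SE 0.05, adjusted p = 2.6e-04), 1.41-fold in 2nd relapse (log2 difference 0.34, SE 0.05, adjusted p = 2.9e-05) and 1.28-fold in Late relapse (log2 difference 0.24, SE 0.05, adjusted p = 8.5e-04). Ube2c had 488, 550 and 659 in Chronic IFNG, 838, 725 and 763 in 1st relapse and 685, 705 and 697 in 2nd relapse tumours, 1.4-fold higher than Parental in 1st relapse and 1.25-fold in 2nd relapse, where the call was lost as given above. Among the kinetochore genes, Cenpa had 696, 819 and 783 in Chronic IFNG, 876, 730 and 710 in 1st relapse, 922, 934 and 1196 in 2nd relapse, 998, 984 and 1085 in Late relapse and 762, 776 and 682 in Parental tumours. It was called in 2nd relapse (log2 difference 0.30, SE 0.07, adjusted p = 0.00211) and Late relapse (log2 difference 0.31, SE 0.07, adjusted p = 0.0022), where its libraries lay above all Parental ones, and not in 1st relapse (0.04). Cenpf had 949, 1265 and 1268 in Chronic IFNG, 1468, 1897 and 1556 in 1st relapse and 1908, 1566 and 1331 in Late relapse tumours, and each of these groups overlapped with the Parental libraries. Ndc80 had 329, 399 and 385 in Chronic IFNG, 435, 382 and 338 in 1st relapse, 378, 381 and 421 in 2nd relapse, 445, 416 and 347 in Late relapse and 388, 383 and 333 in Parental tumours and passed the test in none of these 4 comparisons, with differences of 0.01, 0.03, 0.05 and 0.06 in that order.

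The pole-separating kinesin Kif11 had 865, 1002 and 978 normalised counts in Chronic IFNG KP, 1406, 1243 and 1221 in 1st relapse KP and 1239, 1218 and 1028 in Late relapse KP tumours. It was 1.46-fold higher than Parental in 1st relapse (log2 difference 0.39, SE 0.08, adjusted p = 0.001) and 1.32-fold in Late relapse (log2 difference 0.28, SE 0.08, adjusted p = 0.00815), with all libraries of both groups above the Parental ones. Tpx2 had 1249, 1503 and 1250 in Chronic IFNG, 1562, 1335 and 1419 in 1st relapse, 1415, 1379 and 1692 in 2nd relapse, 1997, 1703 and 1533 in Late relapse and 1492, 1473 and 1398 in Parental tumours. It passed the test in none of the 4 comparisons, although every Late relapse library exceeded every Parental one (log2 difference 0.19, SE 0.08, adjusted p = 0.0509), and it was called there without Late relapse replicate 3 (0.26). Hmmr, a microtubule-binding protein of spindle poles, averaged 1089 ± 139 in Late relapse and 654 ± 59.6 in Parental tumours (SD, n = 3 each), a 1.67-fold rise (log2 difference 0.48, SE 0.06, adjusted p = 2.1e-05). In cytokinesis, Kif23 had 1246, 1797 and 1833 in 2nd relapse and 1827, 1642 and 1625 in Late relapse tumours. It was higher than Parental by 1.58-fold in 2nd relapse (log2 difference 0.47, SE 0.11, adjusted p = 0.00138) and 1.65-fold in Late relapse (log2 difference 0.53, SE 0.11, adjusted p = 7.6e-04). Replicate 1 of 2nd relapse was its lowest relapse library. The chromosome structure genes rose in each relapse group. Mki67 had 3577, 4289 and 4341 in Chronic IFNG, 5246, 5164 and 6002 in 2nd relapse (1.54-fold, log2 difference 0.56, SE 0.08, adjusted p = 1.6e-05) and 5148, 4765 and 4520 in Late relapse tumours (1.36-fold, log2 difference 0.39, SE 0.08, adjusted p = 5.9e-04). Top2a had 3109, 4055 and 3854 in Chronic IFNG and 5313, 4820 and 5357 in 2nd relapse tumours (1.37-fold, log2 difference 0.41, SE 0.11, adjusted p = 0.00392). Chronic IFNG libraries overlapped with Parental ones for both genes.

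Members were called both ways for 2nd against 1st and for Late against 2nd relapse tumours, at smaller shares than all kept genes. The counts between relapse groups are therefore given as description only. Against 1st relapse tumours, 2nd relapse tumours had 8 members higher and 4 lower, beside 34.3% of kept genes higher and 28% lower, with a median of 0.02 for members and 0.02 for all kept genes. All 2nd relapse libraries lay above all 1st relapse libraries for 11 members and below them for 7, as for 37.3% and 30.8% of kept genes. Higher were Cenpf (1.53-fold, log2 difference 0.49, SE 0.11, adjusted p = 0.0012), Kif11 (1.34-fold, log2 difference 0.32, SE 0.08, adjusted p = 0.00268), Nuf2 (0.27), Ccna2 (0.26), the checkpoint gene Mad2l1 (0.26), Cenpa (0.26), Birc5 (0.24) and Ccnb1 (0.23). Lower were Anln (-0.24), Bub1 (-0.24), Kif4 (-0.23) and Nusap1 (-0.20). The calls of Anln, Bub1 and Kif4 were lost on leaving out single libraries. Anln lost it without 1st relapse replicate 1 (-0.19) or 2 (-0.24) or 2nd relapse replicate 1 (-0.20) or 2 (-0.24), Bub1 without 1st relapse replicate 1 (-0.20) or 2 (-0.21) or 2nd relapse replicate 2 (-0.22) or 3 (-0.23), and Kif4 without 1st relapse replicate 1 (-0.14) or 2nd relapse replicate 1 (-0.19). This left 1 member lower without 1st relapse replicate 1, and 2 without 1st relapse replicate 2 or 2nd relapse replicate 1 or 2. Quantile normalisation ended the call of Ccna2 (0.14), and testing without the filter that of Anln (adjusted p = 0.0561). Against 1st relapse tumours, Late relapse tumours had 11 members higher and 0 lower, beside 24.6% of kept genes higher and 23.5% lower, with medians of 0.09 for members and 0 for all kept genes. The count was 7 without 1st relapse replicate 3 and 6 without Late relapse replicate 1. The largest were Aurka (log2 difference 0.36, SE 0.06, adjusted p = 2.9e-04) and Ube2c (log2 difference 0.36, SE 0.08, adjusted p = 0.00177). The others were Cenpe (0.33), Ect2 (0.33), Birc5 (0.31), Cenpa (0.27), Bub1 (0.26), Nuf2 (0.24), Tpx2 (0.21), Ccna2 (0.20) and Kif20a (0.19). Without Late relapse replicate 1, Cenpe (0.24), Bub1 (0.17), Tpx2 (0.13), Ccna2 (0.15) and Kif20a (0.13) lost their calls. Bub1 (0.21), Tpx2 (0.20), Ccna2 (0.18) and Kif20a (0.18) did so without 1st relapse replicate 3, Tpx2 (0.17), Ccna2 (0.14) and Kif20a (0.19) without 1st relapse replicate 2, and Tpx2 (0.22) and Ccna2 (0.18) without Late relapse replicate 2. Tpx2 and Ccna2 also lost them without the filter, under quantile normalisation and with 2 groups only, where Kif20a did too (adjusted p = 0.0511). Against 2nd relapse tumours, Late relapse tumours had 8 members higher and 4 lower, beside 25.2% of kept genes higher and 29.7% lower, with medians of 0.07 and -0.01. Bub1 (log2 difference 0.50, SE 0.09, adjusted p = 1.9e-04), Ube2c (log2 difference 0.45, SE 0.08, adjusted p = 1.9e-04) and Aurka (log2 difference 0.37, SE 0.06, adjusted p = 1.5e-04) were the furthest up. Cenpf (log2 difference -0.52, SE 0.11, adjusted p = 9.3e-04) and Kif11 (log2 difference -0.43, SE 0.08, adjusted p = 3.3e-04) were the furthest down. Anln (0.33), Kif20a (0.26) and the microtubule bundler Prc1 (0.23) were also higher. Calls of Knl1 (0.28), Nusap1 (0.17), Mad2l1 (-0.17) and Ccnb1 (-0.16) were lost on leaving out single libraries. Knl1 lost it without 2nd relapse replicate 3 (0.23) or Late relapse replicate 1 (0.19), and Nusap1 without 2nd relapse replicate 2 (0.13) or Late relapse replicate 1 (0.13). Mad2l1 lost it without 2nd relapse replicate 1 (-0.16) or 3 (-0.16) or Late relapse replicate 2 (-0.18) or 3 (-0.12), and Ccnb1 without any 1 of those 4 libraries (-0.14 in each case). Ccnb1 also lost it without the filter, without the intensity trend, under both scalings, on back-calculated counts and with 2 groups only, Mad2l1 without the filter and under both scalings (quantile normalisation and median centring), and Nusap1 without the filter (adjusted p = 0.0553). The count of lower members was 2 without 2nd relapse replicate 1 or 3 and without Late relapse replicate 2 or 3. These 3 comparisons share libraries with each other and with those against Parental tumours.

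The differences of some members were close to those of the other kept genes around them on the chromosome, a description added after the values were seen. For each member the median log2 difference of non-member genes within 5 Mb was taken as its neighbours' value. In Relapsed LLC1 tumours, the members' differences and their neighbours' had a Pearson r of 0.83 and a Spearman rho of 0.76 over the 35 members, which share the same 6 libraries. Some members lie within 5 Mb of each other and share neighbours, among them Cdc25c and Kif20a, Cdc20 and Kif2c, and Bub1b, Knl1 and Nusap1. The 35 points are thus not all separate, and no such r was calculated for other kept genes. On chromosome 3, Ccna2 differed by 0.74 with neighbours at 0.31 (38 genes), Ect2 by 0.66 with neighbours at 0.28 and the kinetochore motor gene Cenpe by 0.57 with neighbours at 0.34. On chromosome 18, Cdc25c and the central spindle kinesin Kif20a were at -0.09 and -0.10 with neighbours at -0.28. All 35 members were above their neighbours there, by a median of 0.23. In Chronic IFNG LLC1 tumours the r was 0.10 and the rho 0.13, and all 35 members were below their neighbours (median of member minus neighbours, -0.46). In KP the r was 0.34 in Chronic IFNG, 0.27 in 1st relapse, 0.57 in 2nd relapse and 0.48 in Late relapse tumours against Parental tumours. Members lay above their neighbours in 31 of 35 cases in 1st relapse (median 0.18), in 31 in 2nd relapse (0.22) and in 33 in Late relapse (0.25). Between 2nd and 1st relapse tumours the r was 0.82 and the rho 0.77, and 19 members were above and 16 below their neighbours, with a median of 0.04. There Cenpf was at 0.49 with neighbours at 0.30, Kif11 at 0.32 with neighbours at 0.28, Nuf2 at 0.27 with neighbours at 0.32 and Mad2l1 at 0.26 with neighbours at 0.21. On the lower side Kif4 was at -0.23 with neighbours at -0.20, Nusap1 at -0.20 with neighbours at -0.17, and Bub1 and Anln both at -0.24 with neighbours at -0.17 and -0.14. DNA copy number was not measured, and its part in these values was not tested.

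**Figure D4:**
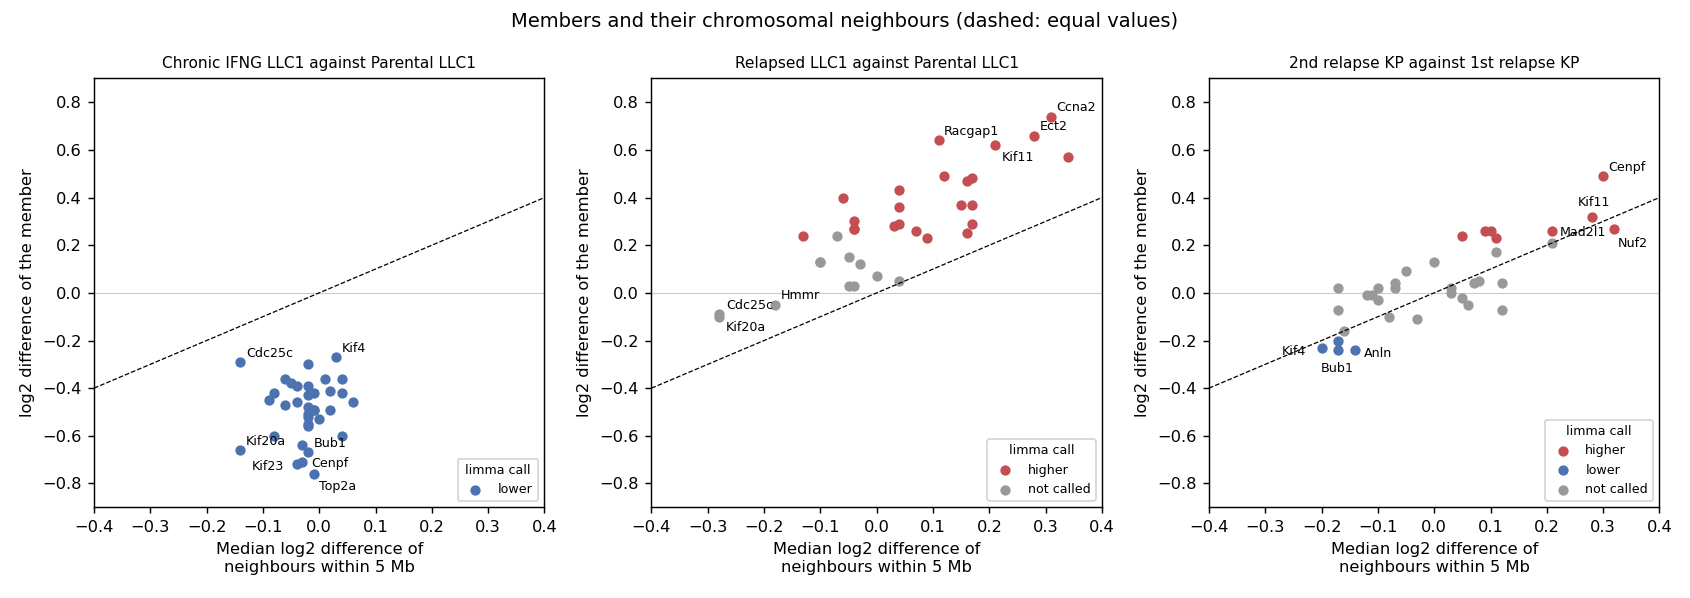
Log2 difference of each member (vertical axis) against the median log2 difference of other kept genes within 5 Mb of it (horizontal axis), for Chronic IFNG against Parental LLC1, Relapsed against Parental LLC1 and 2nd against 1st relapse KP tumours. Each point is 1 of 35 members, coloured by its limma call, and the dashed line marks equal values. All points lie below the line in the Chronic IFNG panel and above it in the Relapsed panel, and they lie along it in the relapse panel (19 above, 16 below).

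Other genes of mitosis, taken from 7 lists of the same pathway, were read beside the members. In Chronic IFNG LLC1 tumours 15.5% of all kept genes fell and 9.03% rose. Of these other mitotic genes 66 of 120 fell and 0 rose (median -0.23). They included 22 of 30 other spindle and kinesin genes, 13 of 29 other kinetochore genes and 11 of 18 condensin and cohesin genes. A separate list of DNA replication and S phase genes had 17 of 22 lower. Among these genes, the microcephaly gene Aspm was at -0.55 and Rrm2, a subunit of ribonucleotide reductase, at -0.66. In Relapsed LLC1 tumours 62 rose and 5 fell (median 0.18), with 14 of 18 condensin and cohesin genes, 16 of 29 kinetochore genes and 13 of 30 spindle and kinesin genes higher, and 6 of 22 S phase genes rose. There 25.9% of all kept genes rose and 19.5% fell. In KP, where 112 were tested, 3 rose and 1 fell in Chronic IFNG (median -0.02), 23 rose and 15 fell in 1st relapse (0.04), 42 rose and 13 fell in 2nd relapse (0.09) and 45 rose and 10 fell in Late relapse tumours (0.11). Among all kept KP genes 12.8% rose and 9% fell in Chronic IFNG and 25.4% and 25.5% in 1st relapse tumours. It was 36.8% and 29% in 2nd relapse and 31% and 25.9% in Late relapse tumours. The shares of these lists that rose in 1st and 2nd relapse thus stood near or below those of all kept genes. The S phase genes rose in 10 of 22 in 1st relapse, 14 in 2nd relapse and 10 in Late relapse tumours, with 1 lower in each. Rrm2 averaged 2639 ± 252 normalised counts in 2nd relapse and 710 ± 104 in Parental KP tumours (SD, n = 3 each), a log2 difference of 1.39 (adjusted p = 1.6e-08). Rad21, a cohesin subunit, averaged 8125 ± 395 in 2nd relapse and 4150 ± 259 in Parental KP tumours (SD, n = 3 each), a difference of 0.88 (adjusted p = 7.3e-09). Tacc3, a spindle microtubule protein, was at 0.67 in Late relapse (adjusted p = 1.3e-06).

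The listed regulators of cell cycle transcription did not all go the way of the members. The list of 18 mixed activators and repressors. Beside Foxm1, Mybl2 and genes of MuvB and DREAM it held E2f1, E2f2, E2f3, E2f7, E2f8 and Rb1. Of the 18, 0 rose and 3 fell in Chronic IFNG LLC1, 7 rose and 1 fell in Relapsed LLC1, 0 rose and 3 fell in Chronic IFNG KP, 1 rose and 7 fell in 1st relapse, 4 rose and 4 fell in 2nd relapse and 2 rose and 8 fell in Late relapse tumours. Among all kept genes 9.03% rose and 15.5% fell in Chronic IFNG LLC1 and 25.9% and 19.5% in Relapsed LLC1 tumours. For KP the shares were 12.8% and 9% in Chronic IFNG and 25.4% and 25.5% in 1st relapse tumours. They were 36.8% and 29% in 2nd relapse and 31% and 25.9% in Late relapse tumours. Foxm1, an activator of mitotic genes, was at -0.19 in Chronic IFNG LLC1 (adjusted p = 0.151) and 0.30 in Relapsed LLC1 tumours (adjusted p = 0.0217). In KP it was at -0.02 in Chronic IFNG, 0.17 in 1st relapse, -0.07 in 2nd relapse and 0.18 in Late relapse tumours, and passed the test in none. Mybl2, the MYB protein that joins MuvB, was at -0.21 in Chronic IFNG LLC1 (adjusted p = 0.15) and 0.57 in Relapsed LLC1 tumours (adjusted p = 1.0e-03) and was not called in KP. E2f8, an atypical E2F that represses transcription, fell in Chronic IFNG LLC1 tumours (-0.35, adjusted p = 0.0215), where the members were lower too. It also fell in 1st relapse (-0.56, adjusted p = 0.00137), 2nd relapse (-0.53, adjusted p = 0.00129) and Late relapse KP tumours (-0.33, adjusted p = 0.0291). Wee1, the kinase that holds Cdk1 inactive, rose in Chronic IFNG KP (0.18, adjusted p = 0.0217) and fell in 2nd relapse KP tumours (-0.14, adjusted p = 0.0239). A list of 15 genes held subunits of the anaphase-promoting complex and some proteins that act with it. Of these 6 fell in Chronic IFNG LLC1 and 4 rose and 2 fell in Relapsed LLC1 tumours. The largest falls in Chronic IFNG LLC1 were those of Ube2s (-0.32) and Fbxo5 (-0.29), which are not core subunits.

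Some counts could hold reads of other genes. Ccnb1, Ccnb2 and Kif4 each have 1 named pseudogene, and 14 members overlap with an annotated gene on the opposite strand. These are Ccna2, Cdc25c, Plk1, Cdc20, Ube2c, Cenpf, Kif11, Kif4, Nusap1, Prc1, Kif20a, Ect2, Top2a and Mki67. Of them Kif11, Nusap1 and Top2a also overlap with 1 on the same strand. Ndc80, Tpx2 and Anln overlap with 1 on the same strand only. The libraries were stranded, but whether the counting used strand is not given in the sources used here.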

How the data were processed

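Total RNA of sorted live CD45- tumour cells was sequenced from 24 samples in 8 groups of 3, with groups taken from the labels. Part of the KP genotype is not reported here. The authors deposited 1 table of log2 values per line, per the file headers, with the variance stabilised; the lowest value, 8.03 in LLC1 and 8.17 in KP, stands for a count of 0. Tools listed in the submitters' processing notes, without their roles, were DESeq2 1.34.0, Salmon 1.8.0 and cutadapt 2.9, with GRCm38 as the build. Raw counts were not used here. Normalised counts were calculated back from the log2 values, and 72.5 to 79.1% of low values per library lay within 0.15 of a whole read (30% by chance).

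All groups of a line entered 1 fit (limma 3.58.1, R 4.3.3, with an intensity trend) over genes with a group mean at least 1 log2 unit above the lowest value, with Benjamini-Hochberg adjustment over kept genes. Replicate numbers were taken to pair 2 groups where every same-numbered pair of libraries correlated above 0.1 in its deviations from the group means. This held in 1st relapse against Parental KP (0.149, 0.112 and 0.206), a hint from the data and not from the labels. The script was tested on simulated data. For 10 comparisons, alternatives were no filter, a stricter one (3 log2 units), quantile normalisation, median centring, no trend, 2 groups only, a replicate block, log2 of back-calculated counts plus 10, and leaving out each library. Symbols came from a GENCODE annotation, which left 70 LLC1 and 85 KP identifiers unmatched. The members and all gene lists were chosen with earlier results of these data known. Every member could be named. Values per library were given for 17 members chosen by role and the 3 with the largest difference in each comparison with Parental tumours, with a few others named by role; from other lists, genes among the largest called differences and fixed regulators were named. The neighbour values were added after the data were seen.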

Additional observations from a re-analysis of the deposited data

Results flagged for a closer look

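Under the same contrast, Chronic IFNG against Parental tumours, 4 members had every LLC1 library below its Parental mean and every KP library above its own. All 35 members were lower in LLC1, so this pattern turned on the KP libraries alone. The share of all kept genes with the pattern was not counted. In KP the Chronic IFNG and Parental libraries overlapped for Cdc25c, Plk1 and Mki67. The log2 differences were -0.29 in LLC1 and 0.10 in KP for Cdc25c, -0.39 and 0.05 for Plk1, -0.72 and 0.27 for Kif23, and -0.60 and 0.17 for Mki67. LLC1 minus KP, these came to -0.40 for Cdc25c, -0.44 for Plk1, -0.99 for Kif23 and -0.77 for Mki67. The difference between the lines was not tested, since the tables were normalised separately, and none of the 4 KP values passed the test in its own line.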

How the results depend on the processing

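No called member changed sign under the alternatives run, while several uncalled members did. No median of the members that exceeded the spread between libraries changed sign. Medians within that spread, such as -0.04 in Chronic IFNG KP and 0.02 in 2nd against 1st relapse, were not judged for sign. The median over all kept genes changed sign in Relapsed LLC1 (0.03, against -0.03 without the filter and -0.01 after centring), in Relapsed against Chronic IFNG LLC1 (0.04, against -0.04 and -0.01), and under both scalings in 2nd relapse (0.03, against -0.02) and Late relapse KP (0.01, against -0.02). The stricter filter tested fewer members and so gave smaller counts and other medians. It kept a gene by its highest group mean, so some members passed only through a group where they were high. In LLC1 these included Ect2 (mean log2 value 10.41 in Parental, 11.07 in Relapsed) and Kif23 (10.61 and 11.09). The counts and medians under this filter are partly set by that choice and are no separate support. The stricter filter left 18 lower in Chronic IFNG LLC1 and 18 higher in Relapsed against Chronic IFNG LLC1 (median 0.94), 13 higher in Relapsed LLC1 (0.38), 3 higher in 1st relapse, 5 higher and 1 lower in 2nd relapse (0.35), and 6 higher and 1 lower in Late relapse KP (0.37). Among all 3218 LLC1 genes under it, 848 were lower, 1175 higher and 951 higher in those 3 LLC1 comparisons. Among 3347 KP genes, 676 were higher and 1325 lower in 1st relapse, 1515 and 1000 in 2nd relapse and 1138 and 1059 in Late relapse tumours. Between relapse groups the stricter filter gave 2 members higher and 1 lower for 2nd against 1st (0.13), 4 higher for Late against 1st, and 2 higher and 1 lower for Late against 2nd. Among all 3347 genes the counts were 1693 higher and 759 lower, 1247 higher and 686 lower, and 831 higher and 1357 lower, in that order. On back-calculated counts, where low values are not compressed, the medians were -0.71 in Chronic IFNG LLC1, 0.37 in Relapsed LLC1, 1.09 between them, and 0.29, 0.38 and 0.44 in 1st, 2nd and Late relapse KP. Without the filter 0 members were lower in Chronic IFNG KP, 1 in 2nd relapse and 2 in Late against 2nd relapse, beside 733, 4231 and 3715 of all 36040 genes. With median centring 2 members were lower in Chronic IFNG KP, 1 in Late relapse and 2 in Late against 2nd relapse, beside 1508, 3418 and 3137 of 11193 genes. With quantile normalisation 2 members were lower in 1st relapse, 8 in 2nd against 1st and 2 in Late against 2nd relapse, beside 3508, 3337 and 3054 of 11193 genes. With 2 groups only 1 member was higher in Chronic IFNG KP, beside 1273 of 11193 genes. The cause of these shifts was not tested.

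Leaving out 1 library gave 33 to 35 members lower in Chronic IFNG LLC1 (median -0.52 to -0.43), 17 to 24 higher in Relapsed LLC1 (0.20 to 0.32) and 34 to 35 higher between them (0.71 to 0.81). Of all 10581 kept genes, 1029 to 1691 were then lower, 2233 to 2433 higher and 2853 to 3296 higher, in that order. In KP leaving out 1 library gave 0 to 1 members higher and 0 to 1 lower in Chronic IFNG (-0.08 to 0), 11 to 17 higher and 0 to 1 lower in 1st relapse (0.15 to 0.20), 17 to 23 higher and 1 to 3 lower in 2nd relapse (0.20 to 0.24), and 23 to 28 higher and 0 to 1 lower in Late relapse (0.23 to 0.33). Of all 11193 kept genes, 1069 to 1508 were then higher and 514 to 1075 lower in Chronic IFNG. It was 2427 to 2749 and 2386 to 2721 in 1st relapse, 3856 to 3890 and 2920 to 3141 in 2nd relapse, and 3101 to 3312 and 2511 to 2800 in Late relapse. For 2nd against 1st relapse the members were 8 to 10 higher and 1 to 4 lower (0 to 0.07), for Late against 1st 6 to 13 higher and 0 lower (0.04 to 0.15), and for Late against 2nd 6 to 10 higher and 2 to 5 lower (0.03 to 0.10). Kept genes were 3493 to 3698 higher and 2855 to 2996 lower, 2396 to 2531 higher and 2134 to 2429 lower, and 2490 to 2684 higher and 3006 to 3107 lower, in that order.

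Same-numbered libraries correlated between -0.303 and 0.08 in LLC1 and between -0.218 and 0.266 in KP, and the numbers paired the libraries by the rule used only in 1st relapse against Parental KP. There the replicate block changed no member's call. In the other comparisons, where samples share only a number, with the replicate block 1 member, Anln, was lower in Late relapse KP against 0 without it, Tpx2 was not called in Late against 1st relapse (adjusted p = 0.0587) nor Ccnb1 in Late against 2nd relapse (adjusted p = 0.0628), and no other member's call changed. The number of libraries, 3 per group, limits the precision.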

Other observations

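Genes that hold back the cell cycle were read from a list of 10, of which 7 were tested in LLC1 and 9 in KP. Against Parental tumours 0 rose and 1 fell in Chronic IFNG LLC1, 2 rose and 4 fell in Relapsed LLC1, 3 rose and 0 fell in Chronic IFNG KP, 4 rose and 1 fell in 1st relapse, 6 rose and 1 fell in 2nd relapse and 4 rose and 0 fell in Late relapse KP tumours. Among all kept genes 9.03% rose and 15.5% fell in Chronic IFNG LLC1 and 25.9% and 19.5% in Relapsed LLC1 tumours. For KP the shares were 12.8% and 9% in Chronic IFNG and 25.4% and 25.5% in 1st relapse tumours. They were 36.8% and 29% in 2nd relapse and 31% and 25.9% in Late relapse tumours. Cdkn1a, the p21 inhibitor of cyclin-dependent kinases, averaged 2009 ± 171 normalised counts in Chronic IFNG, 332 ± 49.5 in Relapsed and 2561 ± 319 in Parental LLC1 tumours (SD, n = 3 each). It was lower in both, by log2 differences of -0.29 (adjusted p = 0.0337) and -2.00 (adjusted p = 1.3e-07). In KP it averaged 554 ± 56.4 in 2nd relapse and 180 ± 37.6 in Parental tumours, a difference of 0.76 (adjusted p = 3.3e-07), and it differed by 0.27 in Chronic IFNG (adjusted p = 0.0133), 0.04 in 1st relapse (adjusted p = 0.693) and 0.31 in Late relapse (adjusted p = 0.00201).

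A list of 8 cyclins and kinases of the step before DNA replication had 0 higher and 2 lower in Chronic IFNG LLC1, 2 higher and 4 lower in Relapsed LLC1, 1 higher and 1 lower in Chronic IFNG KP, 2 higher and 2 lower in 1st relapse, 2 higher and 3 lower in 2nd relapse and 1 higher and 4 lower in Late relapse KP tumours. The shares of all kept genes called in these comparisons are those given in the paragraph before this one. Ccnd1, cyclin D1, averaged 3796 ± 151 in Relapsed and 5950 ± 573 in Parental LLC1 tumours (SD, n = 3 each) and fell by log2 difference -0.58 (adjusted p = 2.5e-04), while in KP it was not called in any group against Parental tumours. Ccnd2, cyclin D2, averaged 4936 ± 281 in 1st relapse, 1937 ± 228 in Late relapse and 2897 ± 561 in Parental KP tumours, with log2 differences of 0.69 (adjusted p = 1.2e-04) and -0.47 (adjusted p = 0.00211).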
